A study of Mus musculus with 2 samples.

Results

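The cells described here are the microglia with the strongest immediate early response in 2 single-cell RNA-seq libraries of the mouse corpus callosum, 1 of its medial and 1 of its lateral part. A cell was chosen by the share of its UMIs (unique molecular identifiers, 1 per captured RNA molecule) that came from 8 genes: Fos, Jun, Junb, Egr1, Ier2, Zfp36, Btg2 and Ppp1r15a. Barcodes counted as cells from 2400 UMIs and 300 genes upwards, with no more than 10% of UMIs from mitochondrially encoded genes. Of these, the 10% of cells with the highest share in each library were taken, and they are called early-response cells below. These are 213 of 2131 medial and 231 of 2308 lateral cells, 444 of 4439 in all. They were set against the 50% of cells of the same library with the lowest share, called low-share cells, 1065 medial and 1154 lateral cells. All cells came from C57Bl6 mice labelled with the genotype CX3CR1 that had received cuprizone, a copper chelator that strips myelin from this tract, for 4 weeks. Animals without cuprizone are not among the samples, and the sources used here give neither the CX3CR1 allele nor the number of mice or the sort gate. Tissue was dissociated with GentleMACS, and microglia were sorted by flow cytometry and captured without culture.

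Immediate early genes are switched on within minutes of a stimulus and need no new protein to be transcribed. Fos and Jun proteins pair into AP-1, Egr1 is a zinc finger factor, and Ier2, Zfp36, Btg2 and Ppp1r15a are induced beside them. The wave is brief, because the same stimulus also induces phosphatases, RNA-decay factors and NF-kB inhibitors that shut it down. In microglia, the resident macrophages of the brain, this response is known from acute activation and is also known to arise while brain tissue is dissociated. All cells of both libraries went through the same steps, and no cells prepared in another way are available for comparison here.

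Because these 8 genes chose the cells, their levels are given only as a description. The share had a median of 1.73% of UMIs in early-response cells and 0.142% in low-share cells of the medial library, and of 1.33% in early-response cells and 0.132% in low-share cells of the lateral library. The last cell inside had 1.103% (medial) and 0.7066% (lateral), and the first outside 1.102% and 0.7024%. Within 10% of the limit lay 28 medial and 25 lateral cells on the inner side, and 15 and 38 on the outer side. The class is a range of the share cut at a fixed percentage of cells, not a cell type.

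**Figure D1:**
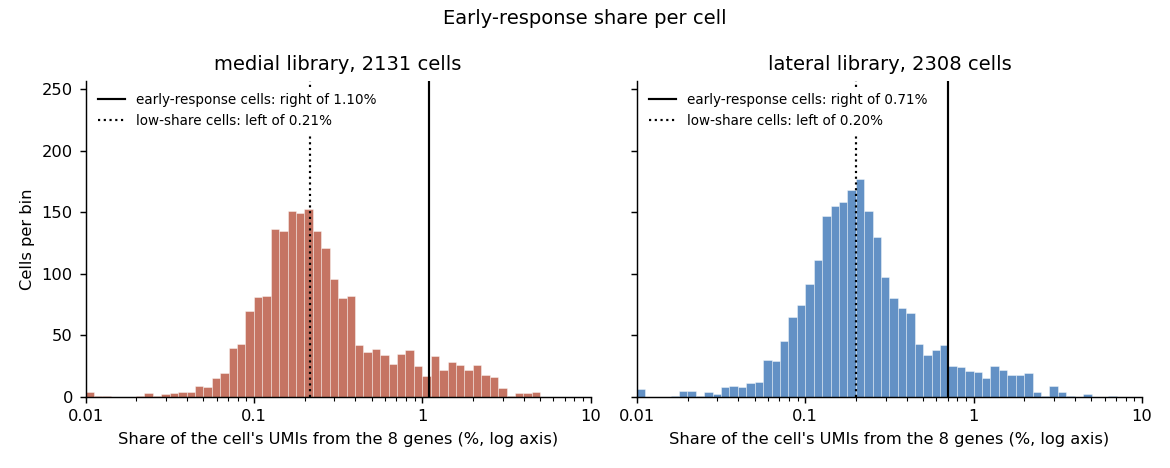
Histograms of the percentage of each cell's UMIs from the 8 genes (log axis) for the medial and the lateral library, as cells per bin, with cells below 0.01% drawn in the first bin. The solid line marks the limit of the early-response cells, at 1.103% medial and 0.7066% lateral, and the dotted line the upper end of the low-share cells. Both distributions are highest near 0.2% and have a long, uneven tail to the right.

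In the following, 2 values joined by "and" for one class of cells are those of the medial library and then the lateral library, and levels are UMIs per 1000000 of the class's summed UMIs, called CPM. Fos was at 2308 and 1805 CPM in early-response cells and 55.3 and 38.8 CPM in low-share cells. Its log2 ratios were 5.38 and 5.54, and Egr1 came close, at 4.89 and 5.37. Junb was the most abundant, at 6301 and 5425 CPM in early-response cells and 685 and 725 CPM in low-share cells, and led the 8 genes in 90.1% of medial and 92.6% of lateral early-response cells. The other 5 genes had log2 ratios between 3.16 and 4.67. These ratios, and the detection shares that follow, are set by the choice of cells. With each gene left out in turn, its own log2 ratio was 5.15 and 5.18 for Fos, 4.67 and 5.19 for Egr1, and 2.82 and 2.47 for Junb, the lowest of the 8. All 8 genes had a UMI in 91.1% (95% interval 86.4 to 94.5) of medial and 75.8% (69.7 to 81.1) of lateral early-response cells, against 2.25% and 0.520% of low-share cells. With every cell thinned to 2400 UMIs the shares were 54.5% and 27.7% in early-response cells and 0% in low-share cells of both libraries (0 of 1065 and 0 of 1154 cells, which by 3 counts allows shares of up to 0.282% and 0.260%). Fos was also at 414 and 326 CPM in barcodes of at most 100 UMIs, a measure of free RNA, which lies above its level in low-share cells. The part of free RNA in the few Fos UMIs of low-share cells was not tested.

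The libraries held 28660496 medial and 27955414 lateral UMIs, with no replicate of either region, so no test was made and no p-value is given. Intervals are exact 95% binomial intervals and cover counting error only. Early-response cells were slightly deeper than low-share cells, with median UMIs per cell of 11610 and 11233 against 10685 and 9520 in low-share cells, and had a lower mitochondrial share, with medians of 1.95% and 2.11% against 2.30% and 2.60% in low-share cells. The microglial label held. Each of 11 microglial markers was found in both classes, and together they took 117 and 119 of 10000 UMIs in early-response cells and 102 and 106 in low-share cells. Markers of 15 other cell types were low. The highest sums were those of endothelial cells, at 0.996 and 1.04, monocytes, at 0.699 and 0.7003, and oligodendrocytes, at 0.647 and 0.727 of 10000 UMIs in early-response cells, against 1.17 and 1.004, 0.955 and 1.07 and 0.726 and 0.697 in low-share cells. Of 8 neutrophil markers, 7 in medial and 6 in lateral early-response cells were at 0. So were 5 and 5 of 6 T or NK cell markers, 2 and 2 of 4 B cell markers, and 3 and 3 of 6 endothelial markers. The other markers of these lists were found in early-response cells. Their sums were 0.00804 and 0.0153 of 10000 UMIs for neutrophils, 0.0121 and 0.0115 for T or NK cells, and 0.137 and 0.0842 for B cells. The 2 libraries shared 7 cell barcodes, none of which marked an early-response cell in both libraries at once. Scrublet marked 5 cells of each library as doublets, 1 of them an early-response cell in each, and they were left in.

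Beyond the 8 genes, early-response cells held more transcripts of other early transcription factors, of feedback inhibitors and of many cytokines and chemokines. A gene was called higher or lower when its summed CPM differed at least 1.5-fold in the same direction in both libraries, among 7437 genes with at least 100 UMIs over both classes in each library. By this rule 555 genes (7.46% of those tested) were higher and 106 (1.43%) were lower. The median log2 ratio of all tested genes was 0.028 and 0.063. At least 2-fold were 147 higher and 4 lower genes, and 34 were at least 4-fold and 9 at least 8-fold higher. Ranked by the interval bound nearest to no difference, Cxcl2 came first, a chemokine that draws neutrophils (ENSMUSG00000058427, chromosome 5, 90903871 to 90905938, GRCm38). It was at 3268 and 2206 CPM in early-response cells and 256 and 141 CPM in low-share cells, with log2 ratios of 3.68 (3.62 to 3.74) and 3.97 (3.89 to 4.05). Next came Adamts1, a secreted protease that cleaves proteoglycans, at log2 ratios of 3.90 and 3.61, Gadd45g, a stress sensor, at 3.53 and 3.73, Csrnp1, a nuclear factor, the cytokines Osm, Tnf and Il23a, and Tnfaip3, Ier3, Egr2, Phlda1, Dusp2, Plk3, Dusp1 and Irf1. Phlda1, a regulator of cell survival, was at 243 and 196 CPM in early-response cells and 32.4 and 29.2 CPM in low-share cells, and Plk3, a stress-responsive kinase, at 135 and 105 CPM in early-response cells and 16.6 and 14.9 CPM in low-share cells. Because the choice used the same UMIs, cells were also chosen on a random 50% of their UMIs and measured in the rest, where fewer genes reach 100 UMIs. There 365 genes were higher, 302 of them among the 555, and 93 were lower, 54 of them among the 106.

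**Figure D2:**
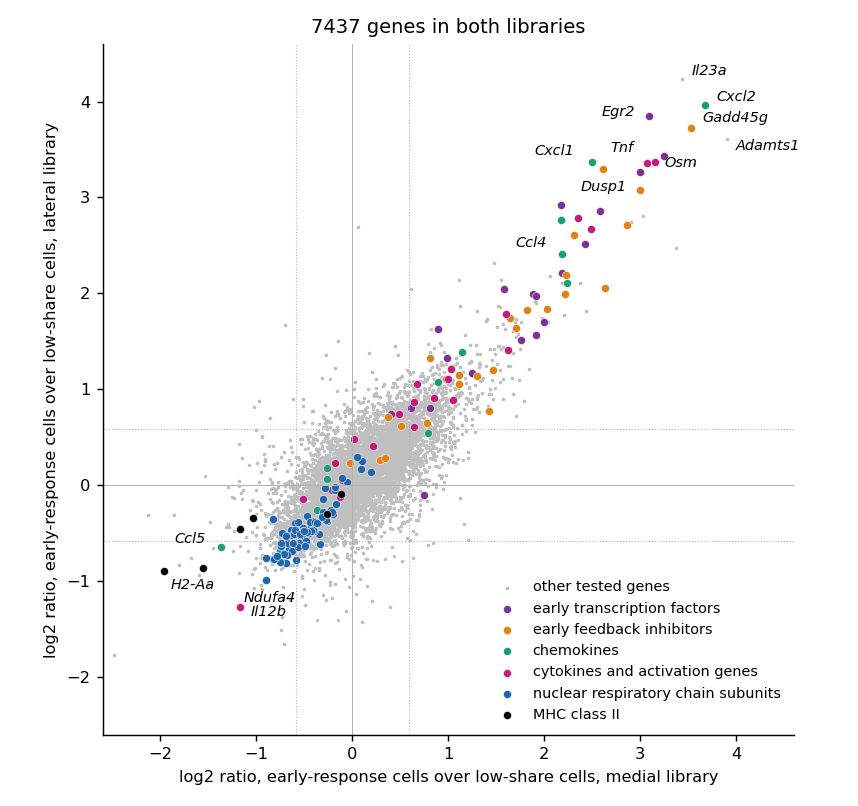
Log2 ratio of early-response cells over low-share cells for 7437 genes, medial library on the x axis and lateral library on the y axis, with members of 6 gene lists coloured and the 1.5-fold limits dotted. Early transcription factors, feedback inhibitors, chemokines and cytokines fill the upper right, up to Cxcl2 at 3.68 and 3.97, and most nuclear respiratory chain subunits lie on the lower left.

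Several partners of AP-1 outside the rule were higher. Of 11 genes, 10 were measured and 5 were higher, against the 7.46% of all tested genes, with a median log2 ratio of 0.91 and 0.73. Maff, a small Maf protein without an activation domain, was at 291 and 224 CPM in early-response cells and 64.0 and 52.1 CPM in low-share cells. Atf3, a stress-induced partner of Jun, was at 1017 and 757 CPM in early-response cells and 271 and 199.6 CPM in low-share cells, and Fosb at 158 and 118 CPM in early-response cells and 50.8 and 35.9 CPM in low-share cells. The log2 ratios of these genes were 2.19 and 2.11, 1.91 and 1.92, and 1.64 and 1.72. Jund, the Jun protein with the steadiest expression, was about 2 times as high, with log2 ratios of 1.07 and 1.01. Batf and Jdp2, partners that counter Fos, had log2 ratios of 0.21 and -0.0067, and -0.16 and -0.75, so the list was not uniform. Fosl2 was past the limit too, at 1.05 and 0.63, but its call was lost under 6 of 12 alternatives, among them the choice of cells at 2400 UMIs each. The calls of Maff, Atf3, Fosb and Jund were kept under all 12.

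Most measured members of the list of early transcription factors were higher. The list also holds early genes of other kinds, such as Ier3. Of 27 genes, 20 were measured, 18 were higher and none was lower, beside 7.46% higher and 1.43% lower of all tested genes. Their median log2 ratio was 1.90 and 1.84. Csrnp1 was at 471 and 406 CPM in early-response cells and 49.6 and 37.7 CPM in low-share cells. Ier3, a regulator of cell death, was at 652 and 527 CPM in early-response cells and 81.9 and 54.8 CPM in low-share cells. Egr2, a relative of Egr1, was at 48.2 and 37.1 CPM in early-response cells and 5.68 and 2.58 CPM in low-share cells. Nr4a1, an orphan nuclear receptor that restrains inflammation in macrophages, was at 501 and 413 CPM in early-response cells and 93.2 and 72.4 CPM in low-share cells. Irf1, the factor that links interferon and NF-kB responses, had log2 ratios of 2.58 and 2.86, Klf2 and Klf6 2.17 and 2.92, and 1.58 and 2.05, Myc 1.89 and 1.99, and Id3 2.18 and 2.21. Cebpb, the most abundant, was at 1954 and 1900.3 CPM in early-response cells and 1113 and 1089.8 CPM in low-share cells, a smaller relative excess with log2 ratios of 0.81 and 0.80. Srf, which drives Fos and Egr1 through serum response elements, was the member with the widest gap between the libraries, at 0.74 and -0.10, and it and Bcl6 were the 2 measured members that were not called. Under the 12 alternatives 17 to 18 members were higher.

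Most measured genes in the list of feedback inhibitors were higher too. The list also holds other early genes, such as the stress sensor Gadd45g. Of 34 genes in this list, 27 were measured, 21 were higher and none was lower, beside 7.46% higher and 1.43% lower of all tested genes. The list's median log2 ratio was 1.42 and 1.22. Dusp1, a phosphatase that switches off p38 and JNK, was at 809.6 and 742 CPM in early-response cells and 133 and 75.6 CPM in low-share cells, and Dusp2, Dusp5 and Dusp6, other MAP kinase phosphatases, were called higher too. Tnfaip3, the ubiquitin editor A20 that stops NF-kB signalling, was at 704 and 689.6 CPM in early-response cells and 88.1 and 81.6 CPM in low-share cells, with log2 ratios of 2.998 (2.89 to 3.11) and 3.08 (2.96 to 3.20). Nfkbia, the inhibitor that holds NF-kB in the cytoplasm, was at 2961 and 2609 CPM in early-response cells and 909.7 and 838 CPM in low-share cells. Gadd45g was detected in few low-share cells, and with all cells at 2400 UMIs it had a UMI in 20.2% and 22.9% of early-response cells against 2.63% and 2.43% of low-share cells. Socs3, the brake on cytokine receptor signalling, had log2 ratios of 2.31 and 2.61, and Zfp36l1, an RNA-decay factor related to Zfp36, 1.47 and 1.199. Not called were Btg1, a relative of Btg2, at 0.29 and 0.26, and Rgs10, a regulator of G protein signalling known to be high in resting microglia, at -0.30 and -0.28. The NF-kB family itself was closer to equal. None of its 6 genes was called in either direction, and with the top 5% of cells 1 was higher. Nfkb1, the p50 precursor, had log2 ratios of 0.19 and 0.12, Rel, which encodes c-Rel, 0.49 and 0.59, and Rela, the p65 subunit, 0.37 and 0.69. The median was 0.36 and 0.42.

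Because these genes were higher together, their promoters were searched for 4 motifs in the 250 bases before the RefSeq transcription start (GRCm38.p6), on both strands: the CRE TGACGTCA bound by CREB and ATF proteins, the AP-1 site (TGACTCA or TGAGTCA), the CArG box of Srf and the NF-kB consensus, the last a family of 10-base sites. The letters of the CRE and of the AP-1 site do not contain each other. A window was held for 27 of the 34 genes that were at least 4-fold higher in both libraries and for 5785 of all 7437 tested genes. The NF-kB consensus stood in 8 of the 27 windows (29.6%) and in 496 of the 5785 (8.57%). In the wider set of 1.5-fold higher genes it stood in 48 of 437 (10.98%), and in the lower genes in 9 of 81 (11.1%). The CRE was in 3 of the 27 (11.1%), against 173 of the 5785 (2.99%). The AP-1 site was in 1 (3.70%) against 153 (2.64%), and the CArG box in none against 58 (1.003%). In the largest differences, the NF-kB consensus and the CRE were thus both found in a higher share of windows than among all tested genes. The AP-1 site was too, by 1 window, and all of these shares rest on few windows. These are matches of letters in a fixed window and not sites of binding. The stretches below show matches in genes named above, from 40 bases before to 40 bases after a match or to the last base before the start, with the matches in capitals: a CRE for Dusp1 (chr17:26508568-26508655, minus strand), 2 overlapping NF-kB matches for Cxcl2 (chr5:90903762-90903851, plus strand), an NF-kB match for Nfkbia (chr12:55492648-55492716, minus strand) and Ier3 (chr17:35821581-35821670, plus strand), and an AP-1 and an NF-kB match for Tnfaip3 (chr10:19015500-19015586, minus strand), which has another NF-kB match closer to its start. They are shown because each belongs to a gene among the most different ones or, for Nfkbia, to a well-known NF-kB target.
Dusp1: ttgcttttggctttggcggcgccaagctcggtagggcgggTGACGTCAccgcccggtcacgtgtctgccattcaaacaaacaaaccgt
Cxcl2: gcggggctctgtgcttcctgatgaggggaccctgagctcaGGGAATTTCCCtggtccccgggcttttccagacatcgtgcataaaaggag
Nfkbia: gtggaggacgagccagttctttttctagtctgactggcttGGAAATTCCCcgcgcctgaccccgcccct
Ier3: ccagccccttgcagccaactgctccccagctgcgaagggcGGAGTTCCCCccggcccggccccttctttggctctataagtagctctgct
Tnfaip3: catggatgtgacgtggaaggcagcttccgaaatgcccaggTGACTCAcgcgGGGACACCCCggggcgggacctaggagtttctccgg

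About as many chemokine genes were higher as were not, and the higher ones included the most abundant. Of 17 chemokine genes, 13 were measured, 7 were higher and 2 were lower, beside 7.46% higher and 1.43% lower of all tested genes. Together the chemokine genes took 118 and 96.4 of 10000 UMIs in early-response cells against 33.4 and 28.9 in low-share cells. Most of this sum was Ccl4, Cxcl2 and Ccl3. Ccl4, which attracts T cells and monocytes, was at 4062 and 3331 CPM in early-response cells and 890.2 and 627 CPM in low-share cells, with log2 ratios of 2.19 and 2.41, and Ccl3, a related chemokine, at 2373 and 1654 CPM in early-response cells and 504 and 383 CPM in low-share cells. At 2400 UMIs per cell, Cxcl2 had a UMI in 85.9% and 67.1% of early-response cells and 31.7% and 18.8% of low-share cells. Without thinning the shares were 93.9% and 81.0% of early-response cells and 72.4% and 47.1% of low-share cells. Cxcl2 was at 1108 and 701 CPM in free RNA, above its level in low-share cells and below that in early-response cells, and the part of free RNA in low-share cells was not tested. Cxcl1 and Ccl2, ligands for neutrophils and monocytes, had log2 ratios of 2.496 and 3.37, and 2.18 and 2.77, and the interferon-induced Cxcl10 0.89 and 1.07. On the other side, Ccl5 was at 33.7 and 41.7 CPM in early-response cells and 87.0 and 65.1 CPM in low-share cells. At 2400 UMIs, Ccl5 had a UMI in 8.45% and 6.49% of early-response cells and in 7.70% and 7.11% of low-share cells. A single cell held 9.52% and 26.6% of the Ccl5 UMIs of early-response cells, and 21.0% and 8.88% of those of low-share cells. Cxcl14, a chemokine outside the inflammatory group, was at 73.5 and 86.5 CPM in early-response cells and 124 and 139 CPM in low-share cells. The macrophage chemokines Ccl6 and Ccl9 had log2 ratios of -0.27 and 0.062, and -0.26 and 0.18, within the limits. The calls of Ccl5 and Cxcl14 were lost against all other cells and with the top 20% of cells, Cxcl14 also under 2 more alternatives, and that of Cxcl10 against all other cells.

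Many cytokines and activation genes were higher. Of 29, 23 were measured, 13 were higher and 1 was lower, beside 7.46% higher and 1.43% lower of all tested genes. The list's median log2 ratio was 0.64 and 0.87. Tnf was at 966 and 813 CPM in early-response cells and 115 and 79.1 CPM in low-share cells, with log2 ratios of 3.07 (2.97 to 3.17) and 3.36 (3.25 to 3.48). It had a UMI in 64.8% and 64.5% of early-response cells and in 20.3% and 12.7% of low-share cells at 2400 UMIs. Osm, oncostatin M of the interleukin 6 family, was at 371 and 419 CPM in early-response cells and 41.6 and 40.5 CPM in low-share cells, and Il23a, not in the list, which encodes the p19 chain of interleukin 23, at 45.4 and 48.6 CPM in early-response cells and 4.19 and 2.58 CPM in low-share cells. Il12b encodes the p40 chain that pairs with p19, and it was on the other side, at 10.0 and 11.5 CPM in early-response cells and 22.6 and 27.6 CPM in low-share cells, with log2 ratios of -1.17 (-1.83 to -0.58) and -1.27 (-1.86 to -0.73). These few Il12b UMIs came from 8 medial and 7 lateral early-response cells, 1 cell of which held 32% and 33.3% of them. With the top 20% of cells its log2 ratios were 0.52 and 0.40, a turn of direction. Its call was also lost under 3 other alternatives. Il1b, the inflammatory cytokine interleukin 1 beta, was at 1236 and 1213 CPM in early-response cells and 619.6 and 561 CPM in low-share cells, and Il1a was likewise about 2 times as high, at log2 ratios of 1.03 and 1.21. The activation marker Cd83 was at 3453 and 3336 CPM in early-response cells and 1911 and 1774 CPM in low-share cells. Ptgs2, the inducible cyclooxygenase, had log2 ratios of 2.48 and 2.67, Icam1, a leukocyte adhesion ligand, 1.62 and 1.41, and Csf1, the ligand of the receptor microglia need to survive, 1.61 and 1.79. Tgfb1 was at 397 and 381 CPM in early-response cells and 433 and 415 CPM in low-share cells and was not called, nor were Bcl2a1a, Bcl2a1b and Bcl2a1d, which are near-identical copies and uncertain as single genes.

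**Figure D3:**
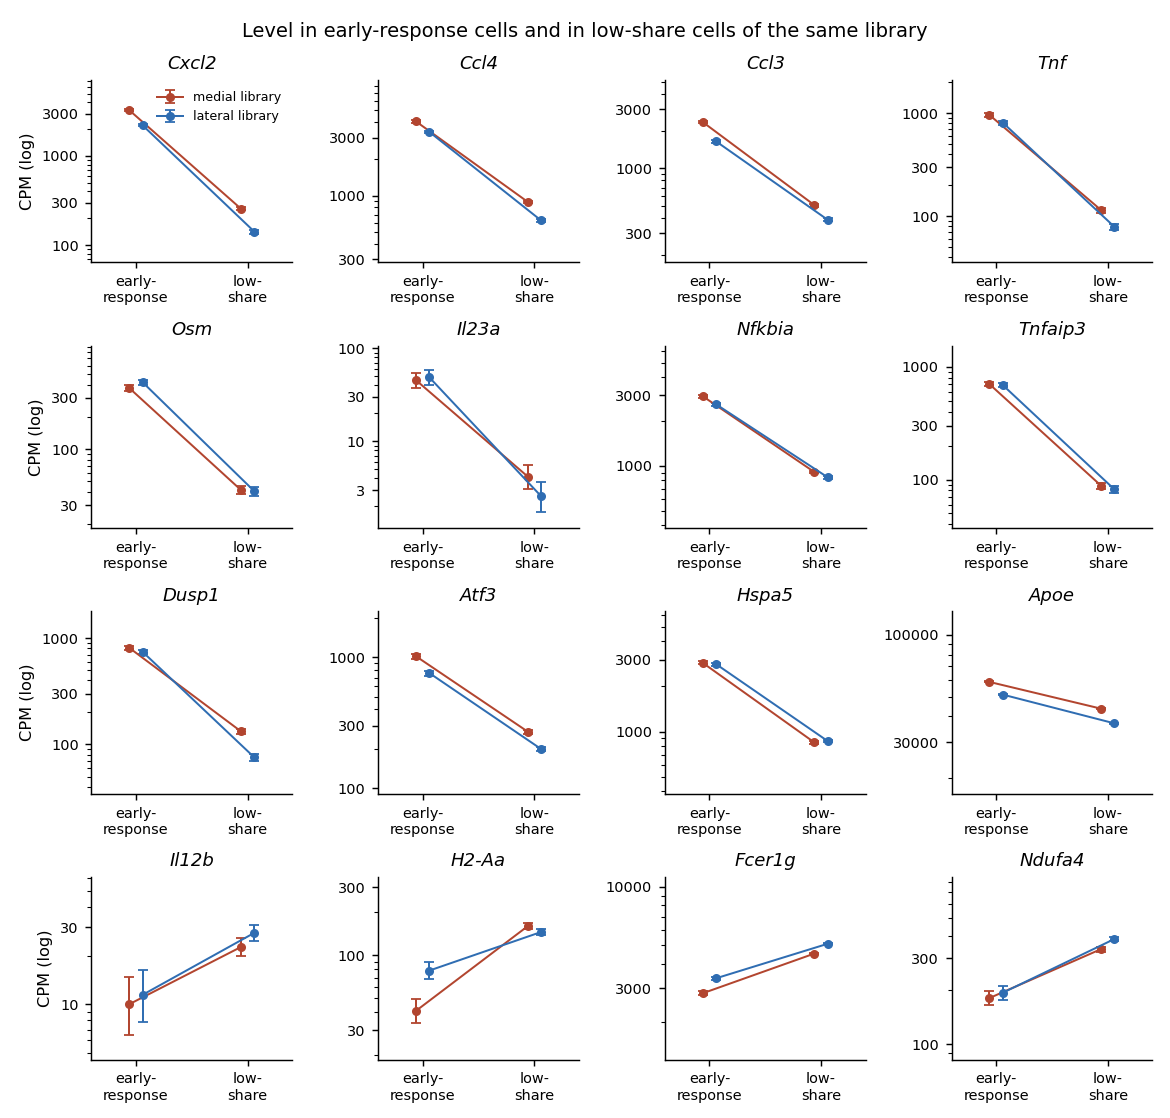
CPM (log axis) of 16 genes in early-response cells and in low-share cells of the medial and the lateral library, summed over cells, with exact 95% Poisson bars for counting error. Cxcl2, Tnf, Osm and the other early genes are higher in early-response cells of both libraries, Apoe by a smaller step, and Il12b, H2-Aa, Fcer1g and Ndufa4 are lower.

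Heat shock genes were mostly alike in both classes, while a few genes of the unfolded protein and integrated stress response were clearly higher. Of 16 heat shock genes, 13 were measured, 3 were higher and none was lower, beside 7.46% higher and 1.43% lower of all tested genes. The list's median log2 ratio was 0.25 and 0.22. Hspa1a, the inducible cytosolic chaperone Hsp70, was at 39.8 and 22.2 CPM in early-response cells and 3.84 and 4.00 CPM in low-share cells. Hspa1b, its near-identical copy, was not measured, and how reads of the 2 copies were assigned is not given, so the level is uncertain. Dnajb1, an inducible partner of Hsp70, was at 186 and 103 CPM in early-response cells and 64.1 and 48.7 CPM in low-share cells. The call of the remaining higher gene, Bag3, a co-chaperone, was lost under 8 of 12 alternatives. The constitutive chaperones stayed within the limits, Hspa8 with log2 ratios of 0.30 and 0.33 and Hsp90ab1 with -0.19 and -0.14. In the unfolded protein and integrated stress list, 15 of 18 genes were measured, 6 were higher and none was lower. Hspa5, the chaperone BiP of the endoplasmic reticulum, was at 2871 and 2812 CPM in early-response cells and 846 and 864 CPM in low-share cells, with log2 ratios of 1.76 (1.72 to 1.81) and 1.70 (1.66 to 1.75). Herpud1, which serves degradation from that compartment, was at 612 and 525 CPM in early-response cells and 203 and 170.1 CPM in low-share cells. Ddit3, the stress factor CHOP, had log2 ratios of 1.75 and 1.42, Xbp1 0.62 and 0.89, and Atf4, whose translation the product of the rule gene Ppp1r15a counters, 0.63 and 0.61, just past the limit, a call lost under 6 of 12 alternatives. Other chaperones of the same compartment were not called: Calr, Pdia3 and Pdia4 had log2 ratios between -0.011 and 0.25, and Sdf2l1, a BiP cofactor, was at -0.53 and -0.44.

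Markers of microglial identity and of the demyelination response were largely alike in both classes. Of 26 homeostatic genes 1 was higher and none lower, a share of 1 in 26 beside 7.46% of all tested genes. Tmem119 was at 634 and 563 CPM in early-response cells and 508 and 512 CPM in low-share cells, Cx3cr1, the fractalkine receptor, at 375 and 355 CPM in early-response cells and 359.6 and 359 CPM in low-share cells, and P2ry12, the ADP receptor, at 409 and 363 CPM in early-response cells and 398 and 450.1 CPM in low-share cells, with log2 ratios of 0.040 and -0.31. Csf1r, the receptor for Csf1, and Mertk, a receptor for apoptotic cells, came closest to the limit, with log2 ratios of 0.58 and 0.54, and 0.53 and 0.61. Of 28 disease-associated genes, 1 was higher and 1 lower. Their median log2 ratio was -0.18 and -0.080, while their summed UMIs had the opposite sign, 0.15 and 0.18. The most abundant member was Apoe, the lipid carrier, at 58867 and 51082 CPM in early-response cells and 43651 and 37033 CPM in low-share cells, with log2 ratios of 0.43 (0.42 to 0.44) and 0.46 (0.46 to 0.47). Ch25h, which makes 25-hydroxycholesterol, was called higher, with log2 ratios of 0.74 and 1.14, and Cd52, a surface glycoprotein, lower, with -0.60 and -0.68. These calls were lost under 3 and 6 of 12 alternatives. Trem2, the lipid receptor of the disease-associated state, was at -0.064 and -0.036. Spp1, osteopontin, was lower in the medial library and alike in the lateral, at 3061 and 5378 CPM in early-response cells and 4693 and 5362 CPM in low-share cells. The tetraspanin Cd63 was at log2 ratios of -0.61 and -0.55. Of 21 measured lysosomal genes 2 were higher, which is near the share of 7.46% among all tested genes. They were the hydrolases Man2b1, at 1.07 and 1.255, and Gaa, at 0.79 and 1.01.

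A few antibody receptor and MHC class II genes were lower in early-response cells, and most members of both lists were not called. Of 17 measured phagocytic and complement receptors, none was higher and 2 were lower, beside 7.46% higher and 1.43% lower of all tested genes. Fcgr3, an activating antibody receptor, was at 636 and 766 CPM in early-response cells and 1127 and 1253 CPM in low-share cells, and Fcer1g, its signalling chain, at 2823 and 3373 CPM in early-response cells and 4521 and 5079 CPM in low-share cells. These calls were lost under 3 and 4 of 12 alternatives, each time with the top 20% of cells among them. Itgam, the complement receptor chain CD11b, had log2 ratios of 0.35 and 0.21, and C1qa, a chain of the complement starter C1q, -0.24 and -0.17. The list as a whole took 271 and 282 of 10000 UMIs in early-response cells and 327 and 333 in low-share cells. MHC class II genes were few in either class. Of 6 measured, 2 were lower, H2-Aa at 41.0 and 78.4 CPM in early-response cells and 160.3 and 146 CPM in low-share cells and H2-Eb1 at 30.9 and 44.4 CPM in early-response cells and 91.2 and 80.9 CPM in low-share cells. Both calls were kept under all 12 alternatives. With lateral cells in 10 equal steps of the share, H2-Aa was at 75.2, 71.0 and 78.8 CPM in steps 8, 9 and 10. It was thus as low in the 2 steps next to the early-response cells. In the medial library these values were 153, 166 and 41.0 CPM. In early-response cells 1 cell held 40.2% and 28.8% of the H2-Aa UMIs and 42.9% and 40.5% of the H2-Eb1 UMIs. At full depth H2-Aa had a UMI in 20.2% and 18.6% of early-response cells and 24.4% and 20.1% of low-share cells, and at 2400 UMIs in 3.29% and 6.93% of early-response cells and 11.6% and 9.19% of low-share cells. H2-Aa was at 162 and 163 CPM in free RNA, whose part in these values was not tested. Cd74, the invariant chain, was at 363 and 471 CPM in early-response cells and 743 and 598 CPM in low-share cells. With cells at 2400 UMIs, Cd74 had a UMI in 39.0% and 34.2% of early-response cells and 26.4% and 22.3% of low-share cells, the reverse of its summed level. Of that level, 1 cell held 25.03% and 21.2% of the UMIs of early-response cells. Cells above the 90th percentile of their library for the class II list made up 3.76% and 6.93% of early-response cells and 9.20% and 9.01% of low-share cells. MHC class I genes were near equal, with 2 of 13 higher, H2-Q6, a gene with close copies and so uncertain, and Tap2.

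Interferon, cell cycle and glycolysis genes gave mixed values. Beside 7.46% higher and 1.43% lower among all tested genes, 5 of 23 measured interferon genes were higher and 1 lower. Their median log2 ratio was 0.0057 and 0.36, against -0.28 and -0.11 for their summed UMIs, of opposite sign. Usp18, which silences the interferon receptor, had log2 ratios of 1.55 and 2.14, and Ifit3, an antiviral effector, was at 20.1 and 36.4 CPM in early-response cells and 13.2 and 8.80 CPM in low-share cells, where 1 cell held 22% and 21.1% of the UMIs of early-response cells. Its call was lost under 6 of 12 alternatives, and against all other cells its medial log2 ratio was -0.26. Ifi27l2a, the most abundant member, was lower, at 609.5 and 516 CPM in early-response cells and 925 and 857 CPM in low-share cells, and this call was lost under 6 of 12 alternatives. None of 29 proliferation genes was called in either direction. Between the depth quartiles 2 were higher and 2 lower, and with the top 20% of cells 3 were higher. Mki67, a marker of cycling cells, was at 19.3 and 44.4 CPM in early-response cells and 23.1 and 33.6 CPM in low-share cells. Of 18 measured glycolysis and hypoxia genes 4 were higher, among them the glucose transporter Slc2a1, with log2 ratios of 1.05 and 0.80, and Pfkl, a phosphofructokinase, with 0.82 and 1.05, while Gapdh had -0.15 and 0.017. The nuclear noncoding RNA Neat1, which builds paraspeckles, was at 343 and 272 CPM in early-response cells and 112 and 102 CPM in low-share cells, and the abundant Malat1 at 5351 and 4555 CPM in early-response cells and 5108 and 4669 CPM in low-share cells.

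The 106 lower genes included Pomp, Prdx1 and several respiratory chain subunits. The calls of Pomp, Prdx1, Cox6b1 and Ndufb8 were lost with the top 20% of cells, and that of Ndufa4 under none of the 12 alternatives. Pomp, which assembles the proteasome, was at 250.3 and 260.2 CPM in early-response cells and 465 and 481 CPM in low-share cells, Prdx1, a peroxide scavenger, at 405 and 482 CPM in early-response cells and 779 and 799.8 CPM in low-share cells, and Ndufa4, a respiratory chain subunit, at 181 and 194 CPM in early-response cells and 338 and 385 CPM in low-share cells. A list of 78 nuclear-encoded respiratory chain subunits was added after these values had been seen. Its median log2 ratio was -0.50 and -0.48. Of its 72 measured genes, 17 were lower and none was higher, beside 1.43% lower and 7.46% higher of all tested genes. The count ran from 1 with the top 20% of cells to 36 with the top 5%. Cox6b1 and Ndufb8, of complexes IV and I, had log2 ratios of -0.82 and -0.76, and -0.90 and -0.75. Not all members leaned this way: Atp5b and Ndufv1 were on the other side of 0, with log2 ratios of 0.086 and 0.17, and 0.20 and 0.14. None of the 13 mitochondrially encoded genes was called, with medians of -0.21 and -0.32, and 1 of 82 measured ribosomal protein genes was lower, Rps27l, a call lost under 5 of 12 alternatives, with medians of -0.26 and -0.30. Transcript length moved with these values. The longest annotated transcript had a median of 1211.5 bases for the lower genes, 3133.5 for the higher genes and 2911 for all tested genes. In the 20% of genes with the shortest transcripts, up to 1613 bases, the median log2 ratio was -0.28 and -0.25, and 4.18% were lower, against 0.405% to 1.28% in the other groups of 20%. The part of length, or of anything that comes with it, in the lower genes was not tested.

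**Figure D4:**
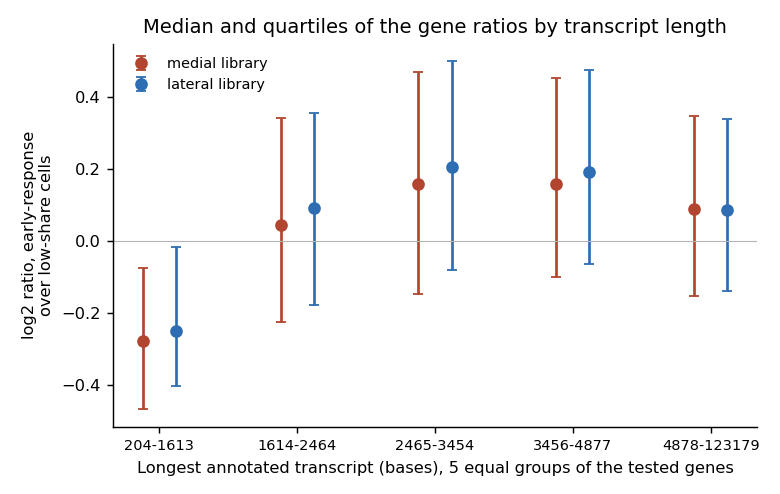
Median (points) and quartiles (bars) of the log2 ratio of early-response cells over low-share cells for 5 equal groups of the tested genes by the length of their longest annotated transcript in bases, medial beside lateral library. The group with the shortest transcripts lies below 0 in both libraries, at -0.28 and -0.25, and the medians of the other 4 groups lie above 0.

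Along the whole range of cells, chemokines were higher well below the early-response cells, while the stress list was higher in the last step. With the cells of each library in 10 equal steps of the share, the last of which is nearly the early-response class, chemokines were already at 62.1 and 44.9 of 10000 UMIs in step 7, 109 and 79.3 in step 9 and 118 and 96.6 in step 10, against 24.0 and 22.6 in step 1. Ccl4 was already as high in step 9 as in step 10, or nearly so, at 4462 and 3044 CPM in step 9 and 4062 and 3343 in step 10. Cxcl2 was much higher in the last step, at 1426 and 824 CPM in step 9 and 3268 and 2215 in step 10, and so was Tnf, at 542 and 363 in step 9 and 966 and 816 in step 10. The unfolded protein and integrated stress list stayed between 43.2 and 50.3 of 10000 UMIs in the first 9 steps of both libraries and was at 74.0 and 71.9 in the last. Il12b was highest below the early-response cells, at 77.9 CPM in step 7 of the medial and 64.6 in step 9 of the lateral library, beside 10.0 and 11.5 in step 10. Respiratory chain subunits were lower in each step after step 6, and stood at 213 and 224 of 10000 UMIs in step 5 and 159 and 167 in step 10.

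**Figure D5:**
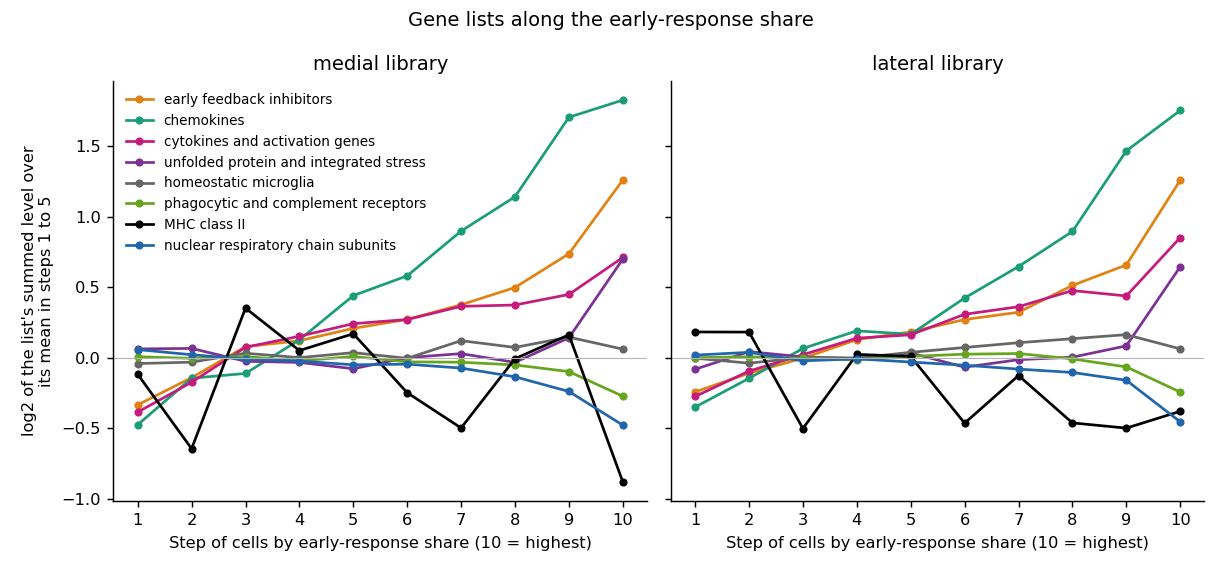
Summed level of 8 gene lists in 10 equal steps of cells by early-response share, as log2 over the mean of steps 1 to 5, for the medial and the lateral library. Chemokines climb over many steps, the unfolded protein and integrated stress list stands clearly apart from 0 in step 10 alone, respiratory chain subunits decline, and MHC class II genes scatter.

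The early-response cells also varied among themselves. At 2400 UMIs per cell, 59.2% and 60.2% of them lay above the 90th percentile of their library for feedback inhibitors, 28.6% and 33.8% for chemokines, 29.6% and 28.1% for cytokines and activation genes, and 29.6% and 33.8% for unfolded protein and integrated stress. In low-share cells these shares lay between 1.13% and 4.98%. The chemokine-rich and the stress-rich cells were in part the same: of 61 medial early-response cells above that level for chemokines and 63 for unfolded protein and integrated stress, 28 were above both, 45.9% of the first set and 44.4% of the second, and in the lateral library 29 of 78 and of 78, 37.2% of each set. Of all early-response cells, 29.6% and 33.8% were above that level for stress, beside 45.9% and 37.2% of the chemokine-rich ones. The lateral overlap was thus near the share of the whole class. Over all cells of the libraries the overlap was 46 of 202 and of 179 medial and 44 of 227 and of 192 lateral cells. This pairing was looked at after the values of the lists had been seen. For heat shock genes the share above the 90th percentile was 11.3% and 9.52%, against 7.14% and 6.50% in low-share cells, and for homeostatic genes 7.51% and 10.4%, against 9.67% and 9.19% in low-share cells.

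Under 1 limit for both libraries, a share of 0.874%, 257 of 2131 (12.1%, 10.7 to 13.5) medial and 187 of 2308 (8.10%, 7.02 to 9.29) lateral cells were above it, with exact intervals in parentheses that cover the counting of cells only. This is a description of the 2 libraries by the value that chose the cells. With 1 library per region, region, animal and library cannot be told apart. The 2 libraries gave like ratios over early-response cells, with a Pearson correlation of 0.77 across the 7437 tested genes, which are not independent replicates. Among all tested genes, 3 were at least 1.5-fold higher in the medial and lower in the lateral library, and 5 the other way. Cell cycle genes were among those with different signs: Top2a, which untangles replicated DNA, had log2 ratios of -0.51 (-0.94 to -0.10) and 0.90 (0.65 to 1.15), and Rrm2, a subunit of ribonucleotide reductase, -0.61 (-1.10 to -0.16) and 0.90 (0.60 to 1.199). These 2 genes were chosen after their values were seen, and the difference between the regions was not tested. Among the early genes Dusp1 had log2 ratios of 2.61 and 3.29, and Nr4a1, closer between the libraries, 2.43 and 2.51.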

How the data were processed

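Gene expression was measured by droplet single-cell RNA-seq (10x Chromium, 3' end) in 2 libraries, 1 per region. The deposited values are counts of UMIs per gene and barcode, which the authors made with Cell Ranger 2.0.1, STAR and mm10 among the tools and builds in the submitters' processing notes. The 27998 gene IDs and 737280 barcodes per library were summed by gene symbol (56 symbols had several IDs). No count was normalized before deposit, and no cell list or cell type annotation was used.

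Cells were barcodes from 2400 UMIs and 300 genes upwards, up to a mitochondrially encoded share of 10%. UMIs were summed over early-response cells and over low-share cells in each library, divided by each class's total, and compared as a ratio with an exact conditional binomial 95% interval. There are no replicates, so intervals and Poisson bars cover counting error only. The ratios and calls were tried on simulated sums of well-covered genes with known large folds. That simulation left out the choice of cells by their own counts, variation among cells and changes near the 1.5-fold limit. Doublets marked by Scrublet (in scanpy 1.11.5) were left in. Free RNA was read from barcodes of at most 100 UMIs. Thinning drew 2400 UMIs per cell with a fixed seed. Other tools were Python 3.11.15, NumPy 2.4.6, SciPy 1.17.1, pandas 2.3.3 and Matplotlib 3.10.9.

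The cells and gene lists were chosen with earlier results of these data known, and the list of respiratory chain subunits was added after its values were seen. A gene counts as measured with at least 100 UMIs over both classes in each library. A gene that reaches this mainly through the class where it is high had to differ, so list counts are over measured members and support nothing by themselves. Outside the 8 genes, mitochondrially encoded and ribosomal protein genes and unnamed models, the text names the 15 higher and 15 lower genes ranked by the interval bound nearest to no difference, 2 members of each list in each direction and its most abundant member, and a set list of well-known genes. Further list members named beside these are examples chosen after their values were seen. Promoter letters and transcript starts are those of RefSeq (GRCm38.p6). Gene positions and transcript lengths are from the reference annotation, and lengths were found for 99.8% of tested genes. Some individual genes are not reported here.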

Additional observations from a re-analysis of the deposited data

Results flagged for a closer look

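The measured proliferation genes had a median log2 ratio of -0.26 (medial) and 0.40 (lateral). This median thus lay on opposite sides of 0 in the 2 regions. For their summed UMIs the log2 ratio was -0.42 and 0.048. At full depth, the typical early-response cell was lower in both. The median share of a cell's UMIs was 0.142% against 0.170% in low-share cells (medial), and 0.156% against 0.185% (lateral). With cells thinned alike, the 90th percentile of this share was 0.375% against 0.5% (medial), and 0.875% against 0.708% (lateral). Malat1, a nuclear noncoding RNA, had log2 ratios of 0.067 in medial and -0.035 in lateral cells, both close to 0. Each region had 1 library, and neither difference was tested.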

How the results depend on the processing

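Of the listed and named genes, 94 were called higher, 72 of them under all 12 alternatives, and 33 were called lower, 4 of them under all 12; 11 lower calls were lost only with the top 20% of cells. The count of 555 higher genes was 365 with cells chosen on 50% of their UMIs and measured in the rest, 339 between the depth quartiles, 1375 at the lower of 2 other fold limits tried and 147 at 2-fold, 918 in the medial library alone and 949 in the lateral alone, 856 with at least 30 UMIs and 278 with at least 300 UMIs. The count of 106 lower genes was 300 with the top 5% and 16 with the top 20% of cells, 704 at the lower and 4 at the 2-fold limit, 415 in the medial library alone and 245 in the lateral alone, and 184 with at least 30 UMIs. The other alternatives stayed within 1.5 times these counts. The following log2 ratios turned direction. Malat1 in the lateral library was at 0.012 with cells chosen at 2400 UMIs, 0.0032 with the top 5%, 0.060 with each cell counted alike and 0.022 between the depth quartiles. Against all other cells, Hmgb2 was at -0.081 and Ifit3 at -0.26 in the medial library. With the top 5%, Tgfb1 was at 0.013 in the medial library. With the top 20%, Il12b was at 0.52 medial and 0.40 lateral, the proliferation median at 0.22 medial and Cst3 at 0.024 lateral. Between the depth quartiles, the proliferation median was 0.024 and the glycolysis and hypoxia median -0.010 in the medial library, and Il12b was at 0.17 and Tmem119 at -0.10 in the lateral. Without doublets and the deepest 5% of cells, Cst3 was at 0.011 in the lateral library. The cause of these changes was not tested. No paired analysis was possible because each region has 1 library. Genes below 100 UMIs were left out of the main comparison and enter only the counts with at least 30 UMIs.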
